A study of Mus musculus with 38 samples.

Results

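IL-23R KO and WT T helper 17 (Th17) cells, both grown with the glucocorticoid dexamethasone (Dex), were compared across the transcriptome. The comparison takes 8 of the 38 RNA sequencing libraries of the study, 4 labelled KO_Dex (numbers 5 to 8) and 4 labelled WT_Dex (numbers 1 to 4). KO_Dex cells carried the genotype given as IL23R KO (C57/B6) and WT_Dex cells that given as WT (C57/B6). In both groups naive T cells, originally from spleen and dLN (draining lymph nodes), were turned into what the labels call Th17Inf cells in vitro and kept with Dex for 2 days, and 2000 live cells were sorted for each library. The matched cultures without Dex (KO_Ctrl and WT_Ctrl, 4 libraries each) are used to set the genotype difference with Dex beside the one without. The labels name neither the ages of the mice nor the deleted part of Il23r. They also do not say whether replicates were separate animals or cultures, so a p value here speaks only of how much the libraries themselves spread. The other 22 libraries, of 2D2+ cells sorted from mice with experimental autoimmune encephalomyelitis in CHD1 and glucocorticoid receptor knockout experiments, were not used here.

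Th17 cells are CD4+ helper T cells that secrete IL-17A and IL-17F. The cytokine IL-23 acts on them through a receptor made of IL-23R and the IL-12Rβ1 chain, which signals through STAT3 and sustains the inflammatory form of these cells. Dexamethasone binds the glucocorticoid receptor, encoded by Nr3c1, which moves to the nucleus, activates genes such as Tsc22d3 and represses many inflammatory genes.

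KO_Dex libraries held 3320586 to 4630765 counts and WT_Dex libraries 4334319 to 4667211. Levels are given as normalised CPM, the counts of a gene per library size (CPM) after TMM scaling, and a count of 3 corresponds to 0.794 to 1.02 normalised CPM in KO_Dex libraries and 0.629 to 0.677 in WT_Dex libraries. The KO_Dex libraries stood apart from the other 12. Mitochondrially encoded genes took 0.359 to 0.447% of their counts, against 1.46 to 2.26% in WT_Dex, and satellite and ribosomal RNA features took 30.5 to 37.5%, against 21 to 25.4% in WT_Dex (exact permutation p = 0.0286 for each, the smallest that 4 libraries against 4 allow; two-sided; 0.0429 adjusted over 15 library measures). Summed T cell markers were also lower, at 2086 to 2381 normalised CPM in KO_Dex against 2677 to 3094 in WT_Dex, and all 12 of them passed the filter on low counts. Of these 12 markers 7 were called lower, 0 higher and 5 not called, against 23.7% of all genes tested called lower. Of the macrophage and monocyte markers Lyz2, Csf1r, Itgam, C1qb, C1qc and Tyrobp had no count in any of the 8 libraries, and of the dendritic cell markers Itgax and Cd209a had none. Blk, which marks B cells, had none either, and the summed B cell markers were 53.3 to 63.7 normalised CPM in KO_Dex and 41.8 to 57.8 in WT_Dex. Most of that sum was Ighm, and of 2 tested B cell markers 1 was called higher and 1 lower. Summed CD8 and NK cell markers were 18.1 to 21.2 in KO_Dex and 13.8 to 18 in WT_Dex (exact permutation p = 0.0286, 0.0429 adjusted). Most of that sum was Cd8b1, and none of 3 tested members was called. No gamma delta T cell or erythroid marker had enough counts. With the satellite, ribosomal RNA and mitochondrially encoded features left out of the fit, 4967 genes were called between KO_Dex and WT_Dex, of which 4924 were also called in the same direction with them. This fit leaves out only the features themselves, and whether what set the KO_Dex libraries apart also shifted other genes was not tested. Whether the lower T cell markers take part in the results below was not tested, and fewer cells of a kind and less RNA per cell cannot be told apart in sorted bulk samples.

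**Figure D1:**
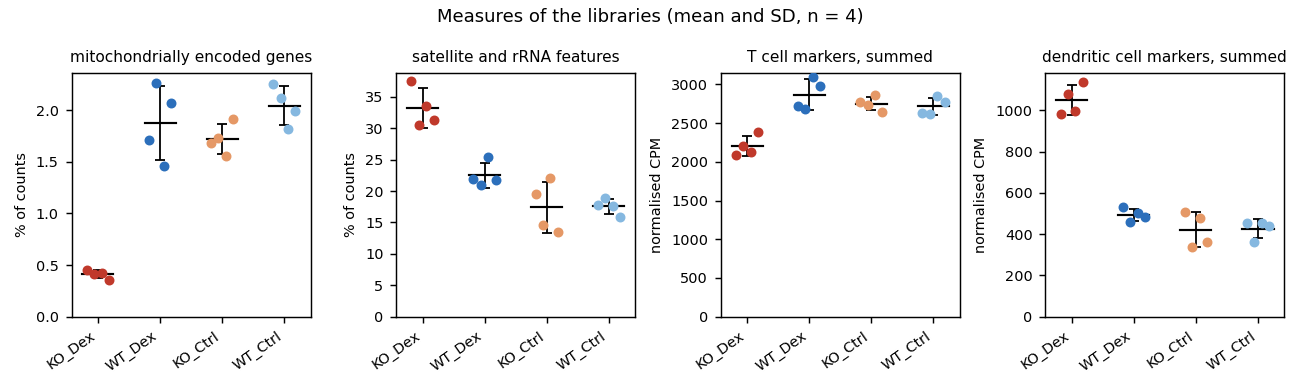
Measures of the 16 in vitro libraries by group: the percentage of counts in mitochondrially encoded genes and in satellite and rRNA features, and the summed normalised CPM of 12 T cell and 12 dendritic cell markers. Points are libraries, and black lines give the mean and SD (n = 4 each). The KO_Dex libraries lie outside the range of the other 12 in all 4 panels. In KO_Dex most of the dendritic cell sum is H2-Ab1.

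Nearly as many genes were higher as lower in KO_Dex, and the difference reached into most classes of genes. Of 10813 genes with enough counts, 4968 differed between KO_Dex and WT_Dex at an adjusted p under 0.05 (45.9% of genes tested; edgeR quasi-likelihood test, two-sided, Benjamini-Hochberg adjustment, used for all adjusted p values of genes here). Of these, 2401 were higher (22.2%) and 2567 lower (23.7%), and the median log2 fold change of all genes was 0.00. A log2 fold change of at least 1 was reached by 778 of the higher genes (7.20% of genes tested) and 818 of the lower (7.56%). When libraries were scaled to their total counts alone, the median of all genes moved to -0.31, and 1227 genes were called higher and 4231 lower. Those totals include the satellite and ribosomal RNA features, whose mean share was 33.2% in KO_Dex and 22.5% in WT_Dex. How much of the shift comes from these features was not tested. Directions of gene groups below were read after TMM scaling, and counts with total-count scaling are added for a list where they differ by more than 1.5 times or its median changes sign. KO_Dex and WT_Dex libraries did not overlap in normalised CPM for 4510 genes (41.7%). The longest genes were more often higher, since of 5 equal classes of exonic length the longest had 30.6% called higher and 12.6% lower, against 19.3 to 20.9% higher and 22.1 to 29.5% lower in the other 4. Because so many genes differed, counts of each group below for KO_Dex against WT_Dex are to be read against 22.2% higher and 23.7% lower.

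**Figure D2:**
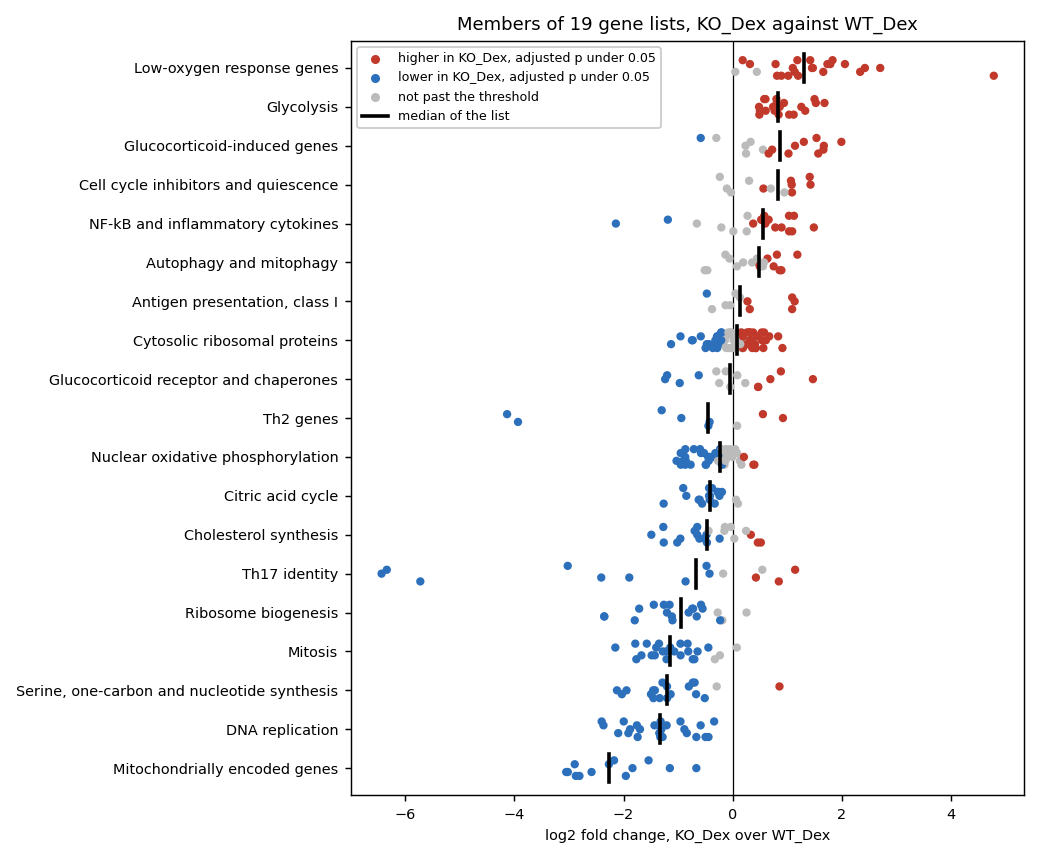
Log2 fold changes of KO_Dex over WT_Dex for the tested members of 19 gene lists, 1 point per gene, with the median of each list as a black bar. Low-oxygen response and glycolysis genes lie to the right of 0, and DNA replication and mitochondrially encoded genes to the left; of these 19 the Th17 list has the members farthest to the left.

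The cytokine genes that define Th17 cells were nearly silent in KO_Dex. Il17f, which encodes a neutrophil-recruiting cytokine, stood at 1.50, 2.38, 1.98 and 2.65 normalised CPM in KO_Dex libraries 5 to 8, against 259.9, 257, 86.7 and 95.9 in WT_Dex libraries 1 to 4. Il17a, encoding the signature cytokine, stood at 0, 1.02, 0 and 1.85 in KO_Dex and 121, 103, 23.9 and 16 in WT_Dex. Both genes were low in all 4 KO_Dex libraries, and the WT_Dex libraries fell into a higher pair (1 and 2) and a lower pair (3 and 4) that still lay above every KO_Dex library. The log2 fold changes were -6.34 ± 0.68 for Il17f (edgeR adjusted p = 1.20e-06) and -6.43 ± 1.11 for Il17a (edgeR adjusted p = 1.70e-04). The Il17a call was lost with limma-voom in place of edgeR (adjusted p = 0.144). Il22, encoding a cytokine that acts on epithelia, had no count in the KO_Dex libraries and 27 counts over the WT_Dex libraries.

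Il23r itself (ENSMUSG00000049093.9, minus strand of mm10 chr6:67422932-67491855) was counted in every KO_Dex library. It stood at 1.50, 2.38, 1.98 and 2.12 normalised CPM in KO_Dex and 12.4, 15.8, 5.87 and 8.56 in WT_Dex, a log2 fold change of -2.41 ± 0.33 (edgeR adjusted p = 1.87e-05). The tables count whole genes, and transcript from parts of Il23r outside the deletion is counted too, so these values do not check the genotype. Every KO_Dex library was below every WT_Dex library. Without Dex the means were 3.97 ± 1.34 in KO_Ctrl and 6.79 ± 1.03 normalised CPM in WT_Ctrl, which did not pass the test (-0.74 ± 0.29, edgeR adjusted p = 0.398).

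Rora, which encodes the nuclear receptor RORα that promotes the Th17 program, stood at 36.6, 41.2, 45.4 and 35.7 normalised CPM in KO_Dex and 21, 21.8, 15.6 and 13.4 in WT_Dex (1.15 ± 0.17, edgeR adjusted p = 3.40e-05). Every KO_Dex library was thus above every WT_Dex library. Of 19 genes listed for Th17 identity 14 had enough counts, 3 of which were higher and 9 lower (median log2 fold change -0.67). Beside Rora the higher ones were Runx1 (0.85 ± 0.11), a transcription factor gene, and Stat3 (0.43 ± 0.07), the transducer of IL-23 and IL-6, whose call was lost with total-count scaling (0.12, adjusted p = 0.195). Ccr6, the chemokine receptor of Th17 cells, was lower (-1.89 ± 0.60, edgeR adjusted p = 0.0163), but KO_Dex libraries, at 4.49, 5.45, 3.10 and 2.38 normalised CPM, overlapped with WT_Dex libraries, at 29.4, 15.6, 7.45 and 3.95. Its call was lost without WT_Dex library 1 (adjusted p = 0.0903) or KO_Dex library 8 (0.0506), and with limma-voom (0.0684). Of 15 tested genes listed for pathogenic Th17 cells 3 were higher and 3 lower (median -0.57, 2 higher and 5 lower with total-count scaling), and Csf2, encoding the cytokine GM-CSF, had 0 counts in both groups. Il21, encoding a cytokine that Th17 cells make for themselves, was lower by a smaller amount (-0.48 ± 0.12, edgeR adjusted p = 0.00342).

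Among 16 genes of the IL-23, IL-12 and IL-6 receptor pathways 6 were higher and 3 lower (median -0.08, 3 higher and 8 lower with total-count scaling). Il23a, which encodes the p19 subunit of IL-23, stood at 33.3, 37.5, 42.9 and 39.99 normalised CPM in KO_Dex and 10.7, 6.15, 6.77 and 2.19 in WT_Dex (2.56 ± 0.29, edgeR adjusted p = 1.91e-06). Il12rb2, the IL-12-specific receptor chain, was 259.9 ± 27.3 in KO_Dex and 153 ± 13.5 normalised CPM in WT_Dex (0.76 ± 0.14), and the receptor kinase gene Jak1 was 106 ± 3.61 in KO_Dex and 64.7 ± 3.93 normalised CPM in WT_Dex (0.71 ± 0.06). Il12rb1, the chain shared by both receptors, did not pass the test (-0.13 ± 0.08, edgeR adjusted p = 0.199), but was called lower with total-count scaling (-0.44, adjusted p = 5.26e-04).

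**Figure D3:**
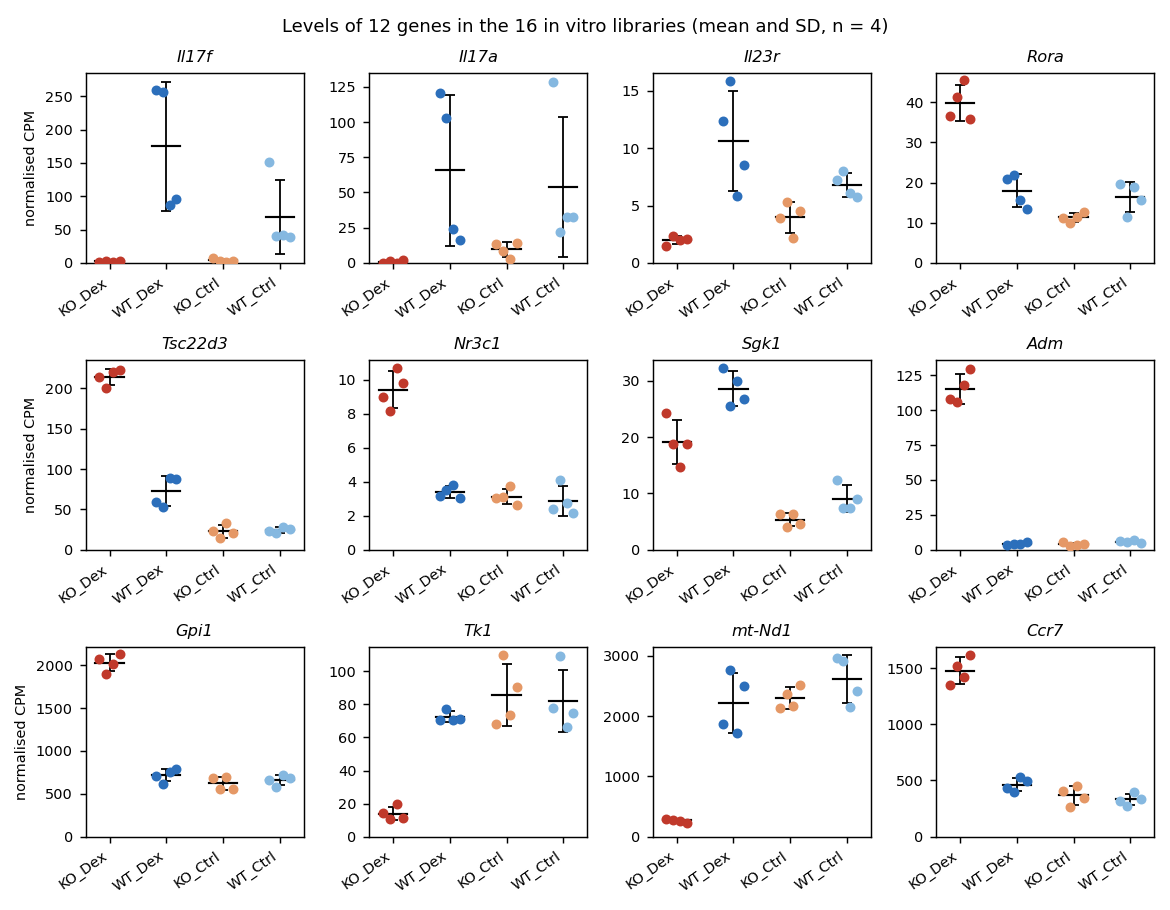
Normalised CPM of 12 genes in the 16 in vitro libraries, with a point for each library and the mean and SD of each group in black (n = 4 each). KO_Dex libraries lie under the other 12 for Il17a, Tk1 and mt-Nd1 and above them for Rora, Tsc22d3, Nr3c1, Adm, Gpi1 and Ccr7.

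Genes that glucocorticoids are known to induce were mostly higher in KO_Dex, although both groups had received Dex. Of 20 listed genes 16 had enough counts, of which 10 were higher and 1 lower (median 0.87, 10 higher and 2 lower with total-count scaling). Tsc22d3, encoding the anti-inflammatory protein GILZ, stood at 214, 200.3, 221 and 223 normalised CPM in KO_Dex and 59.6, 53.4, 89.2 and 87.1 in WT_Dex (1.57 ± 0.18, edgeR adjusted p = 2.78e-06). The 4 KO_Dex libraries were close together and all above the WT_Dex libraries, of which 3 and 4 were the higher. Errfi1, a feedback inhibitor of growth factor receptors, had the largest change of the list (36.4 ± 7.60 in KO_Dex and 9.09 ± 1.26 normalised CPM in WT_Dex, 1.99 ± 0.16). Dusp1, a phosphatase that switches off MAP kinases, was 81.2 ± 12.1 in KO_Dex and 25.5 ± 3.54 normalised CPM in WT_Dex (1.67 ± 0.15), and the clock gene Per1 was 98.5 ± 17.0 in KO_Dex and 31.1 ± 4.94 normalised CPM in WT_Dex (1.66 ± 0.16). Mt2, a metallothionein, was higher too (1.54 ± 0.12), as was Il7r, the IL-7 receptor chain (1.02 ± 0.16).

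Sgk1, a kinase gene that glucocorticoids also induce, went the other way. It stood at 24.3, 18.7, 14.7 and 18.8 normalised CPM in KO_Dex and 32.3, 25.5, 30.0 and 26.8 in WT_Dex (-0.58 ± 0.17, edgeR adjusted p = 0.0111), with no overlap between the groups. Fkbp5, encoding a co-chaperone of the receptor, did not pass the test (7.52 ± 0.879 in KO_Dex and 9.26 ± 1.59 normalised CPM in WT_Dex, -0.30 ± 0.17, edgeR adjusted p = 0.168), but was called lower with total-count scaling (-0.60, adjusted p = 0.00834) and with scaling by gene length (-0.50, adjusted p = 0.0231). The Sgk1 promoter is shown because it holds the full palindromic glucocorticoid response element, which is AGAACA and TGTTCT set 3 bases apart and reads the same on both strands. Of 32851 promoter windows in RefSeq (GRCm38.p6; 250 bases before to 50 after a gene start), 3 hold it. The window printed is on the plus strand, chr10:21993640-21993939, 5′ to 3′, with the element in capitals.
Sgk1: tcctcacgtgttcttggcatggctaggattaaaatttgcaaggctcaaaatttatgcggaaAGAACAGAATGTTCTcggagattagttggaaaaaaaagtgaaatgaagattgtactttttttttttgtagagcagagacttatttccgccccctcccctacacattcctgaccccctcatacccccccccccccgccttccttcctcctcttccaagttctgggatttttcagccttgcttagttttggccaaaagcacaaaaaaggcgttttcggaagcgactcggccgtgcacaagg
The match is a description of these letters, and whether the receptor bound there was not measured.

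The receptor gene and its chaperones did not move together. Nr3c1 stood at 8.99, 8.18, 10.7 and 9.80 normalised CPM in KO_Dex and 3.15, 3.52, 3.84 and 3.07 in WT_Dex (1.47 ± 0.20, edgeR adjusted p = 1.41e-05), so that each KO_Dex library lay above each WT_Dex library. Hspa8, the constitutive HSP70 that helps to fold the receptor, was 993 ± 58.9 in KO_Dex and 2342 ± 86.5 normalised CPM in WT_Dex (-1.24 ± 0.06). Hsp90ab1, which holds the receptor ready for its ligand, was lower as well (-0.97 ± 0.05), as was the co-chaperone gene Fkbp4 (-1.20 ± 0.15). In all, of 15 genes of the receptor and its chaperones 5 were higher and 4 lower (median -0.04, 1 higher and 7 lower with total-count scaling).

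Genes that cells switch on when oxygen is short had the highest median of the lists other than cell markers. Of 24 listed genes 22 were higher and 0 lower in KO_Dex (median 1.31), and the 2 others did not pass the test. In low oxygen the prolyl hydroxylases stop marking HIF proteins for the VHL ubiquitin ligase, and the stabilised HIF turns on genes for glucose uptake, glycolysis and blood supply. Adm, encoding the vasodilator peptide adrenomedullin, stood at 108, 106, 118 and 129 normalised CPM in KO_Dex and 3.15, 3.96, 4.06 and 5.49 in WT_Dex (4.79 ± 0.16, edgeR adjusted p = 4.29e-12). All 4 KO_Dex libraries were far above all 4 WT_Dex libraries. Plod2, a collagen lysyl hydroxylase, was 40.4 ± 5.42 in KO_Dex and 6.18 ± 1.50 normalised CPM in WT_Dex (2.70 ± 0.21). Ankrd37, a HIF target that encodes an ankyrin repeat protein, stood at 350.2, 264, 283 and 308 in KO_Dex and 61.0, 51.0, 48.3 and 64.1 in WT_Dex (2.42 ± 0.22, edgeR adjusted p = 1.71e-07). Ndrg1, a stress-response gene, was 852 ± 62.7 in KO_Dex and 169 ± 19.2 normalised CPM in WT_Dex (2.34 ± 0.15), and Kdm3a, a histone demethylase gene, 103 ± 4.80 in KO_Dex and 24.7 ± 4.45 normalised CPM in WT_Dex (2.06 ± 0.16). Higd1a, a mitochondrial protein gene induced by low oxygen, differed with little spread (1588 ± 66.6 in KO_Dex and 502 ± 20.3 normalised CPM in WT_Dex, 1.66 ± 0.08).

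Of 8 tested genes of the sensing machinery 3 were called, all higher, against 22.2% of all genes tested. Egln1, the main prolyl hydroxylase, was 25.6 ± 1.57 in KO_Dex and 9.21 ± 0.970 normalised CPM in WT_Dex (1.47 ± 0.13), Egln3 differed by 0.79 ± 0.12 and Vhl by 1.10 ± 0.11. These were the 3 genes called (median of the list 0.57). With total-count scaling 3 of the list were called higher and 1 lower. The transcript of Hif1a was not called, at 324, 333, 311 and 327 normalised CPM in KO_Dex and 339, 338, 345 and 319 in WT_Dex (-0.05 ± 0.05, edgeR adjusted p = 0.478), and protein was not measured. With total-count scaling Hif1a was called lower (-0.36, adjusted p = 6.75e-04).

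The HIF proteins bind cores with the letters ACGTG or GCGTG. On either strand, and counting matches that overlap, 43.8% of all 32851 RefSeq promoter windows hold at least 1 of them, as do 62.7% of the windows of genes tested here. Among windows of the low-oxygen list it was 82.1% (23 of 28), and among those of genes higher or lower by at least 1 on the log2 scale 58.9% and 57.8%. For glycolysis it was 80.6%, for glucocorticoid-induced genes 69.0%, for mitosis 68.2% and for DNA replication 53.8%. These shares were not tested, and the low-oxygen list was made of genes known to respond to low oxygen. The Adm and Ankrd37 promoters are printed because these genes are among the 5 called members of the list with the largest fold changes. The Adm window is the plus strand of chr7:110627407-110627706 with 2 matches, and that of Ankrd37 the minus strand of chr8:45999801-46000100 with 4, in capitals, 5′ to 3′ (RefSeq, GRCm38.p6). Of the Ankrd37 matches 2 overlap, and a match to the opposite strand reads CACGT or CACGC.
Adm: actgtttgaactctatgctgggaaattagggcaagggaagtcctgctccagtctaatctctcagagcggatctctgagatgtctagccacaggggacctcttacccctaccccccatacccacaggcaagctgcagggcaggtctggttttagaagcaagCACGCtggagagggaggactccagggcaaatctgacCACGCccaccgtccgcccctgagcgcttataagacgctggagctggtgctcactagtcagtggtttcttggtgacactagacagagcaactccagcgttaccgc
Ankrd37: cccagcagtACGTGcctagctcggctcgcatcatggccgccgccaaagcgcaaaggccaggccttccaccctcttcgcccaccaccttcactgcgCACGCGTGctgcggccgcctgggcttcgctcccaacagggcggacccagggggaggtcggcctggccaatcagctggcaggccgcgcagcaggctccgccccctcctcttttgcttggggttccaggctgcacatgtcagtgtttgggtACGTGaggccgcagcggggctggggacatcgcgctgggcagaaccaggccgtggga

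Glycolysis genes rose as a whole. All 20 listed genes were called higher in KO_Dex, with log2 fold changes of 0.48 to 1.68 (median 0.83). Pfkfb3, which makes the activator of phosphofructokinase, was 76.4 ± 6.26 in KO_Dex and 23.8 ± 3.07 normalised CPM in WT_Dex (1.68 ± 0.12). The glucose transporter gene Slc2a3 was 696 ± 53.6 in KO_Dex and 242 ± 50.5 normalised CPM in WT_Dex (1.52 ± 0.15), and Slc2a1, which encodes GLUT1, differed by 1.26 ± 0.11. Gpi1, the enzyme of the second step, stood at 2079.8, 1900.0, 2014 and 2136 normalised CPM in KO_Dex and 709, 619, 760.1 and 785 in WT_Dex (1.50 ± 0.09, edgeR adjusted p = 3.79e-09), with 2.83-fold higher levels and no overlap. Hk2, hexokinase 2, was higher in every KO_Dex library (87.5, 141, 89.5 and 88.4 in KO_Dex, 39.6, 41.3, 45.6 and 34.5 normalised CPM in WT_Dex; 1.33 ± 0.17), with library 6 above the other 3. Gapdh (0.94 ± 0.07), Aldoa (1.12 ± 0.08) and Pkm (0.84 ± 0.05), which code for later steps of the pathway, also rose. With total-count scaling 16 of the 20 were called, all higher.

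Transcripts of the mitochondrial genome fell in all 13 protein-coding genes. The log2 fold changes were -3.05 to -0.67 (median -2.27). mt-Nd1, a subunit of complex I, stood at 298, 281, 259.7 and 229 normalised CPM in KO_Dex and 1860.0, 2759, 1723 and 2502 in WT_Dex (-3.05 ± 0.15, edgeR adjusted p = 3.32e-10), which is 8.29-fold lower. mt-Atp6, of the ATP synthase, was 441 ± 115 in KO_Dex and 3235 ± 681 normalised CPM in WT_Dex (-2.87 ± 0.17). mt-Co1, the catalytic subunit of cytochrome oxidase, changed least, at 2762, 2371, 2555 and 2228 in KO_Dex and 3613, 4082, 3691 and 4344 in WT_Dex (-0.67 ± 0.09); it was named after its value was seen. These transcripts are the numerator of the mitochondrial share above, so the share and the fold changes are 1 measurement.

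Nuclear genes of respiration were lower in large part, with smaller fold changes. Of 49 nuclear oxidative phosphorylation genes 3 were higher and 29 lower (median -0.23, 0 higher and 41 lower with total-count scaling). Cox5b, a cytochrome oxidase subunit, was 265 ± 21.1 in KO_Dex and 539.8 ± 23.7 normalised CPM in WT_Dex (-1.03 ± 0.07), Ndufa4, a protein of the same complex, 187 ± 9.04 in KO_Dex and 362 ± 47.5 normalised CPM in WT_Dex (-0.95 ± 0.10) and Sdhb, the iron-sulfur subunit of succinate dehydrogenase, 97.4 ± 5.01 in KO_Dex and 183 ± 3.51 normalised CPM in WT_Dex (-0.91 ± 0.07). Cox7c (0.40 ± 0.08) and Ndufs3 (0.38 ± 0.07) were higher, and both calls were lost with total-count scaling. Of 18 citric acid cycle genes 0 were higher and 16 lower (median -0.42), led by Idh3a, a subunit of isocitrate dehydrogenase (22.8 ± 2.78 in KO_Dex and 54.9 ± 3.63 normalised CPM in WT_Dex, -1.26 ± 0.15), while Cs, citrate synthase, had a smaller fold change (-0.60 ± 0.06). Slc25a5, an ADP/ATP carrier of the inner membrane, was 331 ± 25.1 in KO_Dex and 937 ± 44.0 normalised CPM in WT_Dex (-1.50 ± 0.07). Of 13 tested genes that maintain or transcribe mitochondrial DNA, 2 were higher and 2 lower (median -0.02, 0 higher and 5 lower with total-count scaling).

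Autophagy genes were higher in part. Of 18 listed genes 8 were higher and 0 lower (median 0.48, 5 higher and 1 lower with total-count scaling). Bnip3, a receptor for removal of mitochondria and a HIF target, stood at 793, 840.1, 806 and 841 normalised CPM in KO_Dex and 358, 348, 356 and 379.7 in WT_Dex (1.19 ± 0.11, edgeR adjusted p = 4.07e-07). Its relative Bnip3l (0.89 ± 0.16), the cargo receptor gene Sqstm1 (0.81 ± 0.09) and Atg12 (0.86 ± 0.16), which helps to form the autophagosome, also rose.

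Genes of cell division fell together. All 26 DNA replication genes were lower in KO_Dex (median -1.32), as were 22 of 25 mitosis genes (median -1.14), with 0 higher in either list. Tk1, thymidine kinase, stood at 14.1, 10.6, 19.8 and 11.4 normalised CPM in KO_Dex and 70.7, 77.4, 70.7 and 71.1 in WT_Dex (-2.37 ± 0.20, edgeR adjusted p = 1.26e-07), 5.16-fold lower. Gins1, part of the replicative helicase, was 1.99 ± 1.17 in KO_Dex and 10.6 ± 2.39 normalised CPM in WT_Dex (-2.40 ± 0.34), Cdc6, which loads that helicase, 3.80 ± 0.592 in KO_Dex and 16.4 ± 0.774 normalised CPM in WT_Dex (-2.10 ± 0.22) and Mcm5, a subunit of it, 22.3 ± 3.51 in KO_Dex and 84.1 ± 5.54 normalised CPM in WT_Dex (-1.91 ± 0.14). The mitosis genes with the largest changes were Nuf2, of the kinetochore (-2.15 ± 0.16), the kinase gene Plk1 (-1.78 ± 0.15), Ccna2, cyclin A2 (-1.77 ± 0.12), and Top2a, topoisomerase IIα (37.2 ± 3.65 in KO_Dex and 119 ± 11.6 normalised CPM in WT_Dex, -1.67 ± 0.10). For none of these did a KO_Dex library reach the lowest WT_Dex library.

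Inhibitors of the cell cycle were higher in part. Of 12 tested genes listed for cell cycle inhibition and quiescence 6 were higher and 0 lower (median 0.82, 5 higher and 2 lower with total-count scaling). Cdkn1a, encoding p21, stood at 846, 861, 817 and 895 normalised CPM in KO_Dex and 457, 413, 412 and 347 in WT_Dex (1.07 ± 0.08, edgeR adjusted p = 2.54e-08). Cdkn1b, encoding p27, was 36.8 ± 5.86 in KO_Dex and 13.8 ± 2.72 normalised CPM in WT_Dex (1.41 ± 0.17), and the atypical cyclin gene Ccng2 34.1 ± 1.44 in KO_Dex and 12.7 ± 1.43 normalised CPM in WT_Dex (1.43 ± 0.16). The antiproliferative gene Btg1 (1.09 ± 0.16) and the transcription factor gene Foxo3 (1.08 ± 0.20) were higher as well. Of 13 p53 targets, a list that shares Cdkn1a, 7 were higher and 0 lower (median 0.51, 4 higher and 3 lower with total-count scaling), among them Mdm2, the ligase that degrades p53 (1.04 ± 0.14), and Pmaip1, the death gene NOXA (1.11 ± 0.20).

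Genes of growth and biosynthesis were lower as well. Myc, the transcription factor that drives growth, was 119 ± 7.91 in KO_Dex and 217 ± 8.67 normalised CPM in WT_Dex (-0.87 ± 0.09, edgeR adjusted p = 1.13e-06). Of 20 ribosome biogenesis genes 0 were higher and 17 lower (median -0.95). Dkc1, which modifies ribosomal RNA, stood at 21.3, 25.9, 17.8 and 23.0 normalised CPM in KO_Dex and 107, 116, 100.5 and 126 in WT_Dex (-2.35 ± 0.17, edgeR adjusted p = 1.81e-08). The assembly factor gene Rrs1 (-2.35 ± 0.23) and Polr1b, a subunit of RNA polymerase I (-1.71 ± 0.23), also fell. Of 19 genes that make serine, one-carbon units and nucleotides 1 was higher and 17 lower (median -1.20). Phgdh, the first enzyme of serine synthesis, was 43.8 ± 1.53 in KO_Dex and 168 ± 13.8 normalised CPM in WT_Dex (-1.95 ± 0.10), Ctps, which makes CTP, 5.87 ± 1.50 in KO_Dex and 25.7 ± 2.80 normalised CPM in WT_Dex (-2.12 ± 0.20) and Impdh2, of guanine nucleotide synthesis, 113 ± 10.1 in KO_Dex and 318 ± 17.1 normalised CPM in WT_Dex (-1.50 ± 0.07). Mthfd1l, a mitochondrial enzyme of one-carbon metabolism, was the exception (104 ± 6.65 in KO_Dex and 57.6 ± 3.20 normalised CPM in WT_Dex, 0.86 ± 0.08).

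Lipid synthesis fell in part. Of 22 cholesterol synthesis genes 3 were higher and 13 lower (median -0.48, 0 higher and 18 lower with total-count scaling). Dhcr7, the enzyme of the last step, was 13.1 ± 3.26 in KO_Dex and 37.2 ± 4.10 normalised CPM in WT_Dex (-1.49 ± 0.17), and Mvd (-1.27 ± 0.08) and Fdps (-1.02 ± 0.06), of the mevalonate steps, were lower too. Srebf2, the transcription factor gene of this pathway, was higher (0.46 ± 0.07), though not with total-count scaling (0.16, adjusted p = 0.147). Of 11 tested fatty acid synthesis genes 2 were higher and 5 lower (median -0.40, 1 higher and 8 lower with total-count scaling), led by the desaturase genes Fads2 (-1.78 ± 0.19) and Fads1 (-1.26 ± 0.14).

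Cytosolic ribosomal protein genes did not share a direction. Of 75 genes 29 were higher and 20 lower (median 0.08, -0.22 with total-count scaling and then 9 higher and 47 lower). Fau, a ribosomal protein gene, stood at 7675, 6912, 7415 and 7998 normalised CPM in KO_Dex and 4018, 3441, 4415 and 4064 in WT_Dex (0.91 ± 0.09), with no overlap between the groups. Reads of ribosomal protein genes can be shared with pseudogenes, so the value of a single gene is uncertain; Rps2 differed by -1.13 ± 0.25 but its KO_Dex libraries ranged from 692 to 1869.8 normalised CPM.

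Genes of T cell fate moved in several directions. Of 9 tested Th2 genes 2 were higher and 6 lower (median -0.44). Gata3, the Th2 transcription factor, stood at 29.7, 23.8, 28.8 and 24.1 normalised CPM in KO_Dex and 40.7, 42.2, 61.2 and 60.6 in WT_Dex (-0.94 ± 0.15, edgeR adjusted p = 6.53e-05), and Il4 at 7.19, 6.13, 4.23 and 7.15 in KO_Dex and 18.9, 13.6, 12.6 and 15.8 in WT_Dex (-1.3 ± 0.28). Nfil3, a transcription factor gene, was higher (0.92 ± 0.15). In a fit of only the 8 libraries 3 Th2 genes were called lower. Of 10 tested Th1 genes 3 were higher and 3 lower (median -0.55). Cxcr3, the Th1 chemokine receptor, was 4.67 ± 1.67 in KO_Dex and 19.3 ± 1.82 normalised CPM in WT_Dex (-2.06 ± 0.22) and Nkg7, a cytotoxic granule protein gene, 57.7 ± 13.4 in KO_Dex and 194 ± 79.3 normalised CPM in WT_Dex (-1.74 ± 0.33). Tbx21, the Th1 transcription factor, did not pass (-0.66 ± 0.41, edgeR adjusted p = 0.207), and Ifng had 3 counts over the KO_Dex libraries and 7 over the WT_Dex libraries.

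The granzyme genes went opposite ways. Gzmb, encoding granzyme B, stood at 591, 590.4, 581 and 677 normalised CPM in KO_Dex and 174, 197, 332 and 339 in WT_Dex (1.23 ± 0.23, edgeR adjusted p = 3.47e-04). Gzma, encoding granzyme A, stood at 1.50, 1.36, 1.41 and 6.09 in KO_Dex and 24.5, 62.9, 77.2 and 70.2 in WT_Dex (-4.42 ± 0.49, edgeR adjusted p = 1.85e-06). KO_Dex libraries lay above every WT_Dex library for the first gene and below every one for the second.

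Of 12 tested regulatory T cell genes 7 were higher and 3 lower (median 0.59, 3 higher and 4 lower with total-count scaling). Foxp3 had 4 counts over the KO_Dex libraries and 6 over the WT_Dex libraries and was not tested. Tgfb3, a TGF-β cytokine gene, stood at 124, 124, 117 and 141 normalised CPM in KO_Dex and 23.7, 20.4, 37.3 and 39.7 in WT_Dex (2.06 ± 0.20, edgeR adjusted p = 5.17e-07), while Il2ra, the high-affinity IL-2 receptor chain, was lower (303 ± 15.6 in KO_Dex and 481 ± 54.0 normalised CPM in WT_Dex, -0.67 ± 0.08). Il2 itself was 4.27 ± 4.11 in KO_Dex and 19.2 ± 4.89 normalised CPM in WT_Dex (-2.14 ± 0.54, edgeR adjusted p = 0.00363). Il2rb, the receptor chain that transmits the signal, was higher (0.78 ± 0.08). Of 12 genes of the IL-2 pathway and its SOCS inhibitors 5 were higher and 4 lower (median -0.06, 3 higher and 7 lower with total-count scaling), and of 11 tested TGF-β pathway genes 2 were higher and 1 lower (median 0.39, 2 higher and 3 lower with total-count scaling).

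Of 10 tested co-inhibitory receptor genes 3 were higher and 4 lower (median -0.48, 2 higher and 7 lower with total-count scaling). Btla, an inhibitory receptor of T cells, stood at 29.1, 34.1, 29.9 and 32.0 normalised CPM in KO_Dex and 84.3, 87.7, 95.0 and 104 in WT_Dex (-1.57 ± 0.10), and Pdcd1, encoding PD-1, was 16.4 ± 3.73 in KO_Dex and 48.0 ± 4.76 normalised CPM in WT_Dex (-1.55 ± 0.15). Cd274, encoding its ligand PD-L1, was higher (1.09 ± 0.11), as was the co-stimulator gene Icos (271 ± 27.0 in KO_Dex and 127 ± 12.9 normalised CPM in WT_Dex, 1.09 ± 0.12).

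Genes of homing and memory were split. Ccr7, which guides T cells into lymph nodes, stood at 1347, 1524, 1426 and 1621 normalised CPM in KO_Dex and 432, 396, 529 and 492 in WT_Dex (1.68 ± 0.15, edgeR adjusted p = 1.37e-07). S1pr1, which guides them out, was 6.85 ± 1.10 in KO_Dex and 18.5 ± 2.72 normalised CPM in WT_Dex (-1.42 ± 0.15), and Slamf6, a surface marker of stem-like T cells, 3.41 ± 2.12 in KO_Dex and 21.4 ± 5.26 normalised CPM in WT_Dex (-2.67 ± 0.36). Of 11 tested stem-like genes 4 were higher and 4 lower (median 0.10, -0.22 with total-count scaling and then 4 higher and 6 lower), with Satb1, a chromatin organiser gene, among the higher (0.88 ± 0.10). Of 14 tested chemokine receptor and homing genes 2 were higher and 6 lower (median -0.41, 1 higher and 7 lower with total-count scaling), and of 9 tested integrin genes 3 were higher and 1 lower (median 0.12, -0.19 with total-count scaling and then 1 higher and 2 lower), with the αv gene Itgav higher (1.80 ± 0.18).

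NF-κB and cytokine genes, many of which glucocorticoids repress, were mostly higher in KO_Dex. Of 20 tested genes 13 were higher and 2 lower (median 0.55, 9 higher and 4 lower with total-count scaling). Nfkb1, which encodes the p50 precursor, stood at 126, 179, 156 and 179 normalised CPM in KO_Dex and 58.1, 63.1, 52.8 and 53.8 in WT_Dex (1.49 ± 0.10, edgeR adjusted p = 6.45e-09). Traf1, an adaptor gene of TNF receptors, was 432 ± 29.0 in KO_Dex and 198 ± 6.31 normalised CPM in WT_Dex (1.12 ± 0.07), and Ltb, lymphotoxin β, 525 ± 49.4 in KO_Dex and 246 ± 15.7 normalised CPM in WT_Dex (1.09 ± 0.17). Of 13 tested immediate early genes 6 were higher and 2 lower (median 0.40), led by Ier3, a survival gene (436 ± 10.7 in KO_Dex and 111 ± 9.32 normalised CPM in WT_Dex, 1.97 ± 0.11), and the AP-1 gene Jun (26.7 ± 2.93 in KO_Dex and 7.40 ± 1.27 normalised CPM in WT_Dex, 1.85 ± 0.15). Of 22 T cell receptor signalling genes 2 were higher and 7 lower (median -0.09, 0 higher and 14 lower with total-count scaling). The adaptor gene Lat (-0.75 ± 0.08) and the kinase gene Lck (-0.53 ± 0.06) were lower, as was Cd2, an adhesion molecule gene of the T cell marker list (339.6 ± 14.5 in KO_Dex and 590.3 ± 33.6 normalised CPM in WT_Dex, -0.80 ± 0.06). Lat, Lck and Cd2 are all members of the summed T cell markers given above, so their fall and that of the sum are not separate observations.

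Antigen presentation genes rose in part. H2-K1 (2979.8 ± 257 in KO_Dex and 1399 ± 79.6 normalised CPM in WT_Dex, 1.09 ± 0.07) and H2-D1 (1.14 ± 0.07), which encode the class I heavy chains, and B2m, their light chain (4448, 4651, 4611 and 4701 in KO_Dex, 2051, 2301, 2069 and 2224 normalised CPM in WT_Dex; 1.09 ± 0.07), were higher in every KO_Dex library. Over the whole class I list of 11 genes 5 were higher and 1 lower (median 0.13, -0.17 with total-count scaling and then 3 higher and 3 lower). The class II genes H2-Ab1 (894 ± 69.3 in KO_Dex and 251 ± 28.4 normalised CPM in WT_Dex, 1.83 ± 0.15) and H2-Eb1 (2.06 ± 0.16) were higher too. They are on the dendritic cell marker list, whose summed level was 981 to 1139 normalised CPM in KO_Dex against 460.5 to 530.9 in WT_Dex. In KO_Dex most of that sum was H2-Ab1. Of its 12 members 6 had enough counts, of which 2 were called higher, 1 lower and 3 not called. H2-Aa (0.565 to 1.59 in KO_Dex, 0 to 0.839 in WT_Dex) and Cd74 (10.3 to 15.5 in KO_Dex, 6.77 to 13.4 in WT_Dex) overlapped between the groups. Batf3, a transcription factor gene on that list, was lower (77.8 ± 6.61 in KO_Dex and 217 ± 25.1 normalised CPM in WT_Dex, -1.48 ± 0.09), and Itgax and Cd209a were at 0. Of the macrophage and monocyte list only Cd68, a lysosomal membrane protein gene, had enough counts (19.1 ± 4.15 in KO_Dex and 4.59 ± 0.689 normalised CPM in WT_Dex, 2.05 ± 0.23), and the sum of that list was 16.7 to 25.6 in KO_Dex against 4.61 to 6.32 in WT_Dex. Of 14 tested interferon-stimulated genes 4 were higher and 6 lower (median -0.27, 2 higher and 8 lower with total-count scaling). Isg20, an exonuclease gene, stood at 237, 267, 245 and 311 normalised CPM in KO_Dex and 26.8, 26.2, 40.6 and 44.5 in WT_Dex (2.94 ± 0.23), whereas Bst2, tetherin, fell (-1.33 ± 0.13).

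Stress genes were divided. Of 13 tested integrated stress response genes 6 were higher and 6 lower (median -0.26). Ppp1r15a, which ends the response by restoring translation, was 68.9 ± 5.42 in KO_Dex and 22.6 ± 3.01 normalised CPM in WT_Dex (1.61 ± 0.12), while Asns, asparagine synthetase, was 21.5 ± 2.26 in KO_Dex and 51.8 ± 8.06 normalised CPM in WT_Dex (-1.27 ± 0.14). Of 19 genes of protein folding in the endoplasmic reticulum 4 were higher and 7 lower (median -0.04, 2 higher and 9 lower with total-count scaling), and P4hb, protein disulfide isomerase, stood at 1186, 1163, 1210.1 and 1316 normalised CPM in KO_Dex and 391, 349.9, 414 and 423 in WT_Dex (1.63 ± 0.09, edgeR adjusted p = 1.33e-09). Of 8 tested heat shock genes 2 were higher and 3 lower (median -0.21, 0 higher and 4 lower with total-count scaling), with the mitochondrial chaperonin gene Hspd1 lower (-1.40 ± 0.15). Of 13 tested BCL2 family genes 6 were higher and 2 lower (median 0.22, -0.09 with total-count scaling and then 5 higher and 5 lower). These included Bcl2l11, encoding the death protein BIM, which glucocorticoids can induce in lymphocytes (15 ± 2.67 in KO_Dex and 4.83 ± 1.50 normalised CPM in WT_Dex, 1.63 ± 0.22), and the survival gene Mcl1 (49.97 ± 4.69 in KO_Dex and 23.9 ± 2.18 normalised CPM in WT_Dex, 1.06 ± 0.12). Among genes of metal handling Fth1, ferritin heavy chain, was 2806 ± 136 in KO_Dex and 1240.1 ± 109 normalised CPM in WT_Dex (1.18 ± 0.08) and Mt1, a metallothionein, 3408 ± 206 in KO_Dex and 1379.7 ± 87.5 normalised CPM in WT_Dex (1.3 ± 0.08), while Tfrc, the transferrin receptor that imports iron, was lower (-0.60 ± 0.12). Over that list 4 of 12 tested genes were higher and 3 lower (median 0.38).

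Several of the genes with the largest fold changes were in none of the lists. Plaur, the receptor of urokinase, stood at 81.2, 125, 92.3 and 118 normalised CPM in KO_Dex and 16.4, 10.8, 24.2 and 18.4 in WT_Dex (2.58 ± 0.21, edgeR adjusted p = 6.45e-08), with every KO_Dex library above every WT_Dex library. Fscn1, an actin-bundling protein gene, was 21.4 ± 4.86 in KO_Dex and 1.70 ± 0.626 normalised CPM in WT_Dex (3.64 ± 0.45). Dntt, terminal transferase, an enzyme of antigen receptor rearrangement in immature lymphocytes, was 55.3 ± 4.88 in KO_Dex and 5.35 ± 3.52 normalised CPM in WT_Dex (3.37 ± 0.35), and Gipr, a gut hormone receptor gene, 104 ± 8.76 in KO_Dex and 14.3 ± 1.80 normalised CPM in WT_Dex (2.87 ± 0.22). In the other direction Spp1, osteopontin, had 5 counts over the KO_Dex libraries and 473 over the WT_Dex libraries, or 0.599, 0.681, 0 and 0.265 normalised CPM in KO_Dex and 43.2, 19.8, 10.2 and 29.0 in WT_Dex (-6.02 ± 0.97, edgeR adjusted p = 8.39e-05). The Spp1 call was lost with limma-voom (adjusted p = 0.0929), and the size of its fitted fold change rests on few counts in KO_Dex. Pros1, the anticoagulant protein S, was 1.65 ± 0.580 in KO_Dex and 17.5 ± 7.55 normalised CPM in WT_Dex (-3.35 ± 0.35), Tnip3, an inhibitor of NF-κB, 5.06 ± 1.95 in KO_Dex and 43.0 ± 6.15 normalised CPM in WT_Dex (-3.06 ± 0.19) and Slc15a3, a lysosomal peptide transporter gene, 11.3 ± 3.65 in KO_Dex and 96.7 ± 41.5 normalised CPM in WT_Dex (-3.07 ± 0.30). For Slc15a3 the WT_Dex libraries again fell into a higher pair, 1 and 2, and a lower pair, 3 and 4, at 141, 124, 65.5 and 57.3.

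Without Dex far fewer genes differed between the genotypes. Between KO_Ctrl and WT_Ctrl 74 genes were called (0.684% of genes tested), 24 higher (0.222%) and 50 lower (0.462%). The count of 74 became 26 without KO_Ctrl library 8, 34 without KO_Ctrl library 6, and 45 without WT_Ctrl library 1 or 4. The pairs of groups share no library, but both contrasts came from 1 fit of 16 libraries with a shared estimate of the spread. Their calls are set side by side as a description, not as independent results. Of the 74 genes 52 were called in the same direction with Dex (70.3% of the calls without Dex and 1.05% of those with Dex), 14 higher and 38 lower, 8 in the opposite direction, and 14 were not called with Dex. The test of the difference between both genotype contrasts called 3487 genes (32.2%), 1623 more positive (15%) and 1864 more negative (17.2%) with Dex.

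**Figure D4:**
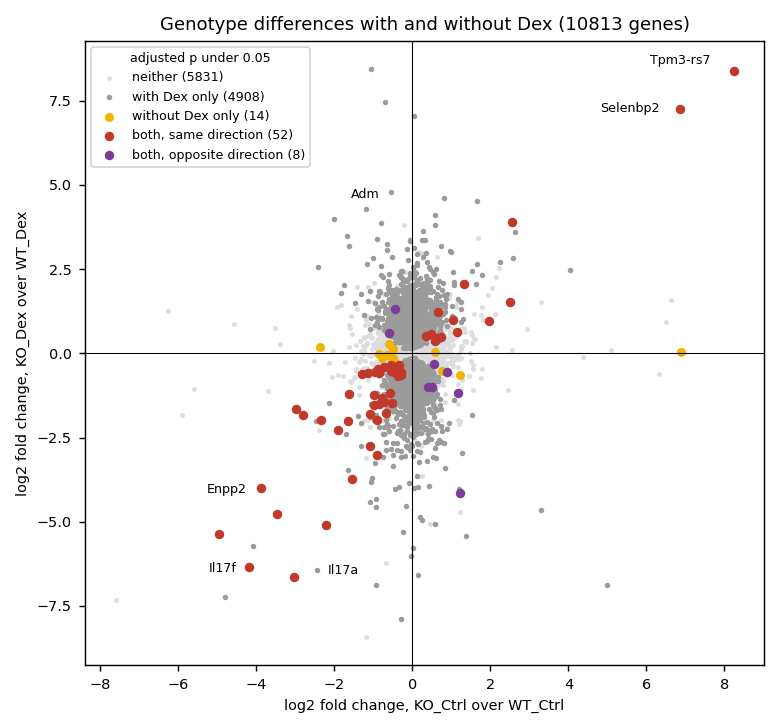
Log2 fold changes of KO over WT for 10813 genes, with Dex on the y axis and without Dex on the x axis, 1 point per gene, coloured by which comparison called it. Most called genes (4908) were called with Dex alone and spread along the y axis; 52 were called in both comparisons in the same direction and 8 in opposite directions.

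Among genes lower in KO cells under both conditions were Il17f (-4.20 ± 0.61 without Dex) and Enpp2. Enpp2, encoding the secreted enzyme autotaxin, was 7.88 ± 3.21 in KO_Dex and 123 ± 44.0 normalised CPM in WT_Dex with Dex (-3.99 ± 0.33), against 3.49 ± 1.39 in KO_Ctrl and 51.1 ± 14.0 normalised CPM in WT_Ctrl without Dex (-3.89 ± 0.36). Muc13, a membrane mucin gene, was lower in both as well (-4.77 ± 0.37 with Dex and -3.49 ± 0.37 without). It had 6 counts over the KO_Dex libraries and 234 over WT_Dex, and 9 over KO_Ctrl and 115 over WT_Ctrl. The size of both fitted fold changes thus rests on few counts in KO cells.

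Of the genes named here Tpm3-rs7 and Selenbp2 had the largest positive differences both with and without Dex. Tpm3-rs7, annotated on chr14:113314608-113316754, stood at 197, 204, 208 and 232 normalised CPM in KO_Dex and 1.26, 0.440, 0.677 and 0 in WT_Dex (8.39 ± 0.28), and differed by 8.23 ± 0.28 without Dex. It had 11 counts over the WT_Dex libraries and 12 over WT_Ctrl, so the size of both fitted fold changes rests on few counts. Tpm3, the tropomyosin gene it resembles, on chromosome 3, was 236 ± 11.6 in KO_Dex and 356 ± 20.3 normalised CPM in WT_Dex (-0.59 ± 0.06), and 159 ± 6.28 in KO_Ctrl and 352 ± 10.1 normalised CPM in WT_Ctrl without Dex (-1.15 ± 0.06). Reads can be shared between this pair of near-identical genes, so which of them differed is uncertain. Selenbp2, also on chromosome 3 and a close copy of Selenbp1, stood at 59.0, 73.9, 61.5 and 57.7 in KO_Dex and 0, 1.54, 0 and 0 in WT_Dex (7.26 ± 0.43) and differed by 6.85 ± 0.60 without Dex. Its assignment is uncertain for the same reason, and the size of its fitted fold change rests on few counts in WT_Dex. H2-Eb1 (1.31 ± 0.16 without Dex), the class II gene given above, Mid1, a ubiquitin ligase gene (1.54 ± 0.34 with and 2.50 ± 0.32 without Dex), and Cblb, a ubiquitin ligase gene that restrains T cell activation (1.21 ± 0.12 with and 0.65 ± 0.12 without Dex), were higher in both. The Cblb call without Dex was lost without WT_Ctrl library 1 or 4 or without KO_Ctrl library 8 (edgeR adjusted p = 0.0622 to 0.0835).

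The 8 genes called in opposite directions included Mt1, Pim1, Tg and Fkbp2. Mt1 was lower in KO cells without Dex (738 in KO_Ctrl and 1015 normalised CPM in WT_Ctrl; -0.46 ± 0.08, edgeR adjusted p = 0.0123) and higher with Dex. Pim1, a kinase gene downstream of cytokine receptors, did the same (-0.60 ± 0.12 without and 0.61 ± 0.11 with Dex). Tg, annotated as thyroglobulin, and Fkbp2, a prolyl isomerase gene, were higher in KO cells without Dex (0.40 ± 0.08 and 0.50 ± 0.09) and lower with Dex (-0.99 ± 0.08 and -1.01 ± 0.10). All 4 calls without Dex were lost without KO_Ctrl library 8 (edgeR adjusted p = 0.0573 to 0.0939), and those of Pim1, Tg and Fkbp2 also without KO_Ctrl library 6 (0.0817 to 0.0916) or WT_Ctrl library 4 (0.0572 to 0.0672). The Pim1 call was also lost without WT_Ctrl library 1, 2 or 3 (0.0514 to 0.0690), that of Tg without library 1 (0.0819) and that of Fkbp2 without library 2 (0.0616).

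The test of the difference between both genotype contrasts was also counted by list. It was more positive for 19 of 20 glycolysis genes, 20 of 24 low-oxygen genes and 10 of 16 glucocorticoid-induced genes. It was more negative for 23 of 26 DNA replication genes, 22 of 25 mitosis genes and all 13 mitochondrially encoded genes. Over all genes tested the shares were 15% more positive and 17.2% more negative. Of 3273 genes called both with Dex and for the interaction, 3272 had an interaction in the direction of their difference with Dex. The counts by list thus largely repeat those with Dex. In the comparison without Dex none of the members of these 6 lists was called, save 1 glucocorticoid-induced gene that was lower. Adm had the smallest interaction p (5.35 ± 0.27, edgeR adjusted p = 4.23e-09), with means of 3.97 in KO_Ctrl and 5.84 normalised CPM in WT_Ctrl. The interaction was 1.68 ± 0.28 for Tsc22d3 (edgeR adjusted p = 2.36e-04), 1.36 ± 0.30 for Nr3c1 (edgeR adjusted p = 0.00222) and -2.86 ± 0.20 for mt-Nd1 (edgeR adjusted p = 4.43e-08). Prdx6, an antioxidant enzyme gene (1.32 ± 0.09), and Slc25a5 (-1.47 ± 0.09) were among the others with the smallest interaction p. The interaction includes the 4 KO_Dex libraries, whose mitochondrial and repeat shares stood apart from those of the other 12.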

How the data were processed

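RNA of 2000 sorted cells per library was amplified with a modified SMART-Seq2 protocol and 12 cycles of enrichment, per the labels' protocols. The deposited table gives estimated counts per gene, made by the authors with RSEM 1.3.3 on mm10, per the submitters' processing notes; every value in it is a whole number, so none was rounded here. Other settings are not given in the sources used here. A count of reads without molecular identifiers does not count molecules.

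From these counts, genes were kept by filterByExpr (minimum count 10, minimum total 15), libraries were scaled by TMM, and 4 groups over 16 libraries were fitted with edgeR 4.0.16 (quasi-likelihood test, two-sided, Benjamini-Hochberg adjustment over 10813 genes, threshold 0.05; R 4.3.3). Errors of log2 fold changes are standard errors worked out from the test, as the absolute log2 fold change divided by the square root of its F statistic. Those of levels are SD over 4 libraries. Sums over a library were compared by an exact permutation test. Alternatives were DESeq2 1.42.0, other scalings and filters, removal of satellite, rRNA and mitochondrial features, equal depth, limma-voom (limma 3.58.1) with and without a replicate block, a fit of 8 libraries and each library left out. Gene positions are from GENCODE M21, which held 97.9% of the table's 31053 symbols, and promoters from RefSeq (GRCm38.p6). KO_Dex numbers (5 to 8) and WT_Dex numbers (1 to 4) differ, so the groups compared cannot be paired. Within a genotype, deviations from the group mean correlated little between libraries with and without Dex. The r was -0.02 to 0.05 for same numbers and -0.06 to 0.05 for different ones, and the main fit used no pairing.

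The comparison, gene lists and tests were chosen with earlier results of these data known. Named genes were taken from a rule: Il23r and a set list of cytokine, T helper and glucocorticoid genes; per direction the 15 non-overlapping called genes with the largest fold change and 8 with the largest difference of mean CPM; up to 5 called members per list and 3 against its majority; the leading genes shared with the comparison without Dex, opposite to it or called for the interaction; and Tpm3, Selenbp2 and their copies. Results for some genes are not reported here.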

Additional observations from a re-analysis of the deposited data

Results flagged for a closer look

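The genotype difference itself differed between cultures with and without Dex, by a test of that difference, for 3487 genes (edgeR adjusted p under 0.05). Among the genes named above the interaction log2 fold change was 5.35 for Adm, 1.68 for Tsc22d3, 1.36 for Nr3c1 and 1.32 for Prdx6. It was -1.47 for Slc25a5 and -2.86 for mt-Nd1.

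In 15 of 318 sets of 4 values 1 library lay far from the other 3, and chance gives about 1 in 20. Of these 6 were in KO_Dex. Library 6 was high for Cxcr3 (7.15 normalised CPM, others 3.60 to 3.97) and for Hk2 (140.7, others 87.5 to 89.5). Library 7 was low for Fkbp5 (6.21, others 7.84 to 8.09). Library 8 was high for Gzma (6.09, others 1.36 to 1.50) and Gzmb (676.6, others 580.9 to 590.5) and low for Slamf6 (0.265, others 4.09 to 4.80). The other 9 were in WT_Dex. Library 1 was low for Hspa8 (2212 normalised CPM). Library 2 was low for H2-Eb1 (10.3) and Ndrg1 (139.8), and high for Ndufa4 (432), Selenbp2 (1.54, others 0), Slc25a5 (1003) and Tk1 (77.4). Library 4 was high for Tfrc (110.8) and Tg (289.7). The calls with Dex of these genes did not change when any 1 library was left out.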

How the results depend on the processing

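Between KO_Dex and WT_Dex 4968 genes were called; the count was 4558 with DESeq2, 4967 after removal of satellite, rRNA and mitochondrial features, 4246 with thinning to equal depth as well, 4762 in a fit of 8 libraries, and 4526 to 4726 when 1 library was left out. With total counts in place of TMM, 1227 genes were higher and 4231 lower, and the interaction had 767 and 3445. With a log2 fold change of at least 1 as well, 1596 were called. Without Dex, where 74 were called, the counts were less stable: DESeq2 called 122 (86 lower), total counts 45 (25 lower), thinning 45 (14 higher, 31 lower), the fit of 8 libraries 42 (15 higher, 27 lower), and leaving out 1 library 26 to 79 (10 to 28 higher, 16 to 51 lower). KO_Ctrl libraries 5 and 7 stood apart from 6 and 8, with satellite shares of 9.89 and 12.5% against 5.48 and 5.10%. Whether this split takes part in the less stable counts was not tested, nor was any other cause. KO_Dex and WT_Dex could not be paired because the genotypes share no replicate number. With the numbers as a replicate block within each genotype, limma-voom gave 4884 calls with Dex, and 4886 without the block. For the interaction, where numbers recur with and without Dex, it gave 3697 with the block and 3519 without (block correlation 0.0608). The fit without the block was chosen after seeing the data. Ccr6, Il17a and Spp1 were not called by limma-voom with the block (adjusted p = 0.0657, 0.141 and 0.0962) or without it (0.0684, 0.144 and 0.0929). Hif1a, not called, changed sign among genes of at least 10 CPM on average (log2 fold change 0.0056, adjusted p = 0.937). Of 3063 pairs of a named gene and a setting with Dex, 3046 kept direction and call. A scaling by gene length was chosen after seeing the data and gave 4845 calls. Where a group averaged under 3 counts per library, the size of a fitted fold change is imprecise. This holds for KO_Dex for Il17a, Spp1 and Muc13, and for WT_Dex for Selenbp2 and Tpm3-rs7. It also holds for KO_Ctrl for Muc13 and WT_Ctrl for Selenbp2.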

Other observations

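Of the genes called in the same direction with and without Dex, several lie near each other; this is a description with no test. Chromosome 3 between 85000000 and 97000000 (mm10), a window chosen after the positions were seen, holds 152 of the genes tested (1.41%) and 7 of these 52 genes (13.5%). They include Dclk2, Gon4l, Tpm3, S100a3, S100a6 and Selenbp2. Of the 152 genes 74 were called with Dex (48.7%), near the share of all genes (45.9%). Without Dex 7 were called (4.61%, against 0.684% of all genes). They are the same 7 genes by whose positions the window was chosen, so this is no second observation. Dclk2, Gon4l, S100a3 and S100a6 were named for their position after their values were seen. Il23r lies on chromosome 6.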
